A study of Mus musculus with 12 samples.

Results

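Markers of the medium spiny neurons of the striatum, 9 genes in all, were followed in the hippocampal RNA of 12 female mice: *Drd2*, *Adora2a*, *Penk*, *Adcy5*, *Pde10a*, *Ppp1r1b*, *Rgs9*, *Rasd2* and *Scn4b*. The genes were chosen by name, with their spread among the Fn14koMRL mice already known, so every value within that strain is a description and carries no test. All 9 were on the array, out of 29608 genes, with 16 probes between them. Total RNA of each mouse was labelled with Cy3 or Cy5 and hybridized to Agilent arrays of 60-base probes, 2 mice of the same strain to each of 6 arrays.

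There were 4 mice of each of 3 strains, all adults of about 12 weeks in diestrus. MRL/lpr mice carry the lpr mutation of *Fas*, which encodes a death receptor, and develop lupus-like disease. Fn14koMRL mice (Fn14ko in the study's methods) were littermates of MRL/lpr from backcross generation 8 in which *Tnfrsf12a*, the gene of the TWEAK receptor Fn14, was knocked out on the MRL/lpr background. MRL/MpJ mice (MRL/+ in the methods), the non-lupus background, came from a commercial breeder. Both arrays of a strain lay on a slide of their own, so slide and strain cannot be told apart. Levels are given as multiples of the channel median, the median background-subtracted intensity of a mouse over the spots measured in all 12 mice, and levels of different genes are not compared.

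The labelled tissue and the targeted gene were checked first. The *Tnfrsf12a* probe read 0.18, 0.16, 0.19 and 0.15 in the mice labelled Fn14koMRL and was well above background in all 4, against 0.24 to 0.44 in MRL/lpr and 0.28 to 0.63 in MRL/MpJ, and whether it lies inside the deleted part is not given in the sources used here. *Fas* read 0.03 to 0.25 in MRL/lpr and 0.05 to 0.23 in MRL/MpJ. The array of MRL/lpr replicates 3 and 4 was weak, its median foreground being 1.93 and 1.73 times background where the other 10 mice had 4.42 to 12.6, and the comparisons of MRL/lpr below are given with and without it. In the Cy5 channel of MRL/MpJ (replicates 2 and 4) the negative-control spots lay at 0.254 and 0.187 of the channel median, and in MRL/lpr replicate 4 at 0.332, so levels near or under these are not told apart from background there.

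Markers of other brain regions also differed between the strains. Of 13 hippocampal markers, 8 were higher in both MRL/lpr replicates 1 and 2 than in any of the 8 mice of the other strains. *Prox1*, a dentate granule cell factor, was 0.18 and 0.16 in these 2 mice, 0.01 to 0.02 in Fn14koMRL and 0.02 to 0.13 in MRL/MpJ. The gene was named after its values were seen. *Wfs1*, which is strong in CA1, lay between 3.43 and 6.93 in every mouse outside the weak array. Of 10 cortical markers, 5 were lower in MRL/lpr replicates 1 and 2 than in all 8 other mice, among them *Lamp5*, at 0.50 and 0.60 compared with 1.66 to 5.24. The share of all genes with either order was not counted. For the MRL/MpJ mice alone, 14.2% of all genes had these 2 MRL/lpr mice below all 4. The free-text descriptions of the samples mention cortex, whereas tissue and source give hippocampus. The part of these regional differences in the results below was not tested.

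Medium spiny neurons are the principal output neurons of the striatum, and they exist in a direct-pathway form with D1 receptors and an indirect-pathway form with D2 and adenosine receptors and enkephalin. In both forms, dopamine and adenosine receptors act on adenylyl cyclase 5 and cAMP, phosphodiesterase 10A degrades cAMP, and protein kinase A phosphorylates DARPP-32, which then inhibits protein phosphatase 1. The hippocampus proper holds no such neurons, although several of these genes are also transcribed at lower levels in cortical and hippocampal cells. In bulk RNA, fewer cells of a type and less RNA per cell cannot be told apart.

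A pair of probes is shown because readings turn on them. The *Drd2* probe was well above background in only 8 of the 12 mice, and 1 of the 4 *Rgs9* probes read high only on the weak array. They are given from the array files, 5′ to 3′ in lower case with no base set apart, and lie in the mm9 build at chr9:49215047-49215106 (plus strand) and chr11:109121142-109121201 (minus strand).
Drd2 probe: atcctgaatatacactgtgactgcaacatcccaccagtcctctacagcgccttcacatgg
Rgs9 probe: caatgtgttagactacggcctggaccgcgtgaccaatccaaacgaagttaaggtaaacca

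**Figure D1:**
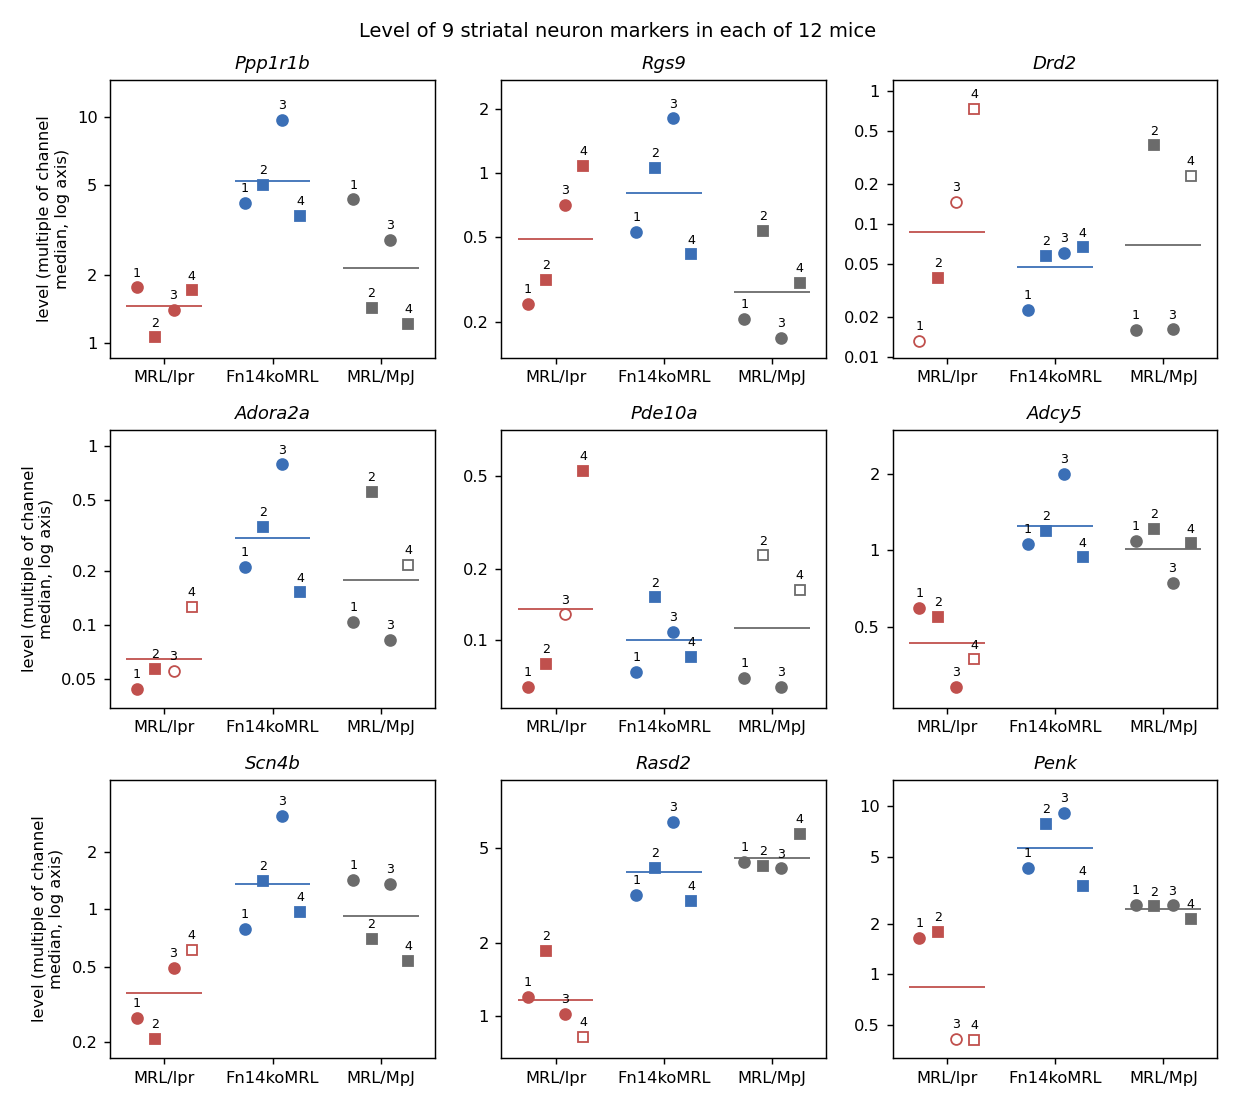
Level of each gene (multiple of the channel median, log axis) in the 4 mice of each strain, numbered by replicate, with circles for Cy3 and squares for Cy5, filled where the probe signal was well above background (for genes with several probes, at least 1 of them); bars are geometric means. In Fn14koMRL, replicate 3 lies highest for 7 of the 9 genes, and the MRL/lpr mice lie below all MRL/MpJ mice for *Adcy5*, *Rasd2* and *Penk*.

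Within Fn14koMRL, the markers were highest in replicate 3 and next highest in replicate 2 for 7 of the 9 genes (*Ppp1r1b*, *Rgs9*, *Adora2a*, *Adcy5*, *Scn4b*, *Rasd2* and *Penk*). Among the 15369 genes well above background in all 4 of these mice, 5.65% had that order, 32.3% were highest in replicate 3 and 20.1% in replicate 2. Replicate 3 was labelled with Cy3 and replicate 2 with Cy5, and they lay on different arrays, each beside a mouse with lower levels. The highest mouse was 2.71 times the lowest in the median over the 9 markers, compared with 1.43 times over those 15369 genes. The shares and ratio in Fn14koMRL describe the values by which the genes were chosen, and nothing is read from them. A wide ratio also occurred outside this strain. The same median over the markers was 3.19 in MRL/MpJ and 2.95 in MRL/lpr, compared with 1.91 and 3.01 over those genes. In MRL/MpJ, *Rgs9*, *Drd2*, *Adora2a* and *Pde10a* were higher in both Cy5 mice, whose negative controls were raised. *Ppp1r1b*, *Scn4b* and *Penk* were higher there in both Cy3 mice. *Penk*, *Rasd2* and *Adcy5* spanned only 1.20, 1.39 and 1.63 in that strain. The MRL/lpr ratio includes the weak array. The part of dye and array in these ratios was not tested.

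The markers follow by role, the receptors of the indirect pathway first. *Adora2a*, the adenosine receptor that raises cAMP in indirect-pathway neurons, read 0.21, 0.35, 0.78 and 0.15 in Fn14koMRL replicates 1 to 4. Its 4 values spanned a factor of 5.16, the widest of the 9 markers, and 1.46% of the genes measured in these mice spanned more. In MRL/lpr it read 0.04, 0.06, 0.06 and 0.13, all below the lowest Fn14koMRL mouse, and only 2 of these 4 were well above background. In MRL/MpJ it read 0.10, 0.55, 0.08 and 0.22, with both Cy5 mice above both Cy3 mice. The probe lies at chr10:74797461-74797520.

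*Drd2*, the dopamine D2 receptor, did not show the same order. It read 0.02, 0.06, 0.06 and 0.07 in Fn14koMRL, with replicate 1 apart below and replicate 4 highest. The negative-control spots of these mice lay at 0.001, 0.016, 0.001 and 0.028 of the channel median. The order of replicates 2, 3 and 4 is therefore not settled for this gene. In MRL/lpr *Drd2* read 0.01, 0.04, 0.15 and 0.74, and in MRL/MpJ 0.02, 0.39, 0.02 and 0.23. The 4 values over 0.1 belong to the weak array and to the 2 MRL/MpJ channels with raised negative controls, and without these the gene stood between 0.01 and 0.07 in every mouse.

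*Penk*, which encodes the enkephalin precursor, read 4.31, 7.86, 9.11 and 3.37 in Fn14koMRL. In MRL/MpJ it read 2.59, 2.54, 2.58 and 2.15, and in MRL/lpr 1.66, 1.80, 0.41 and 0.41. The 3 strains did not overlap, and the MRL/MpJ mice differed among themselves by a factor of 1.20 only, against 2.71 in Fn14koMRL. The 2 lowest values come from the weak array, where the probe was not well above background. The probe lies at chr4:4060724-4060783, on the minus strand.

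The enzymes of cAMP turnover differed from each other. *Adcy5*, adenylyl cyclase 5, read 1.06, 1.19, 2.00 and 0.94 in Fn14koMRL, 1.09, 1.22, 0.74 and 1.06 in MRL/MpJ, and 0.59, 0.55, 0.29 and 0.37 in MRL/lpr. Among the Fn14koMRL mice, all 3 of its probes, within chr16:35304041-35304610, were highest in replicate 3. *Pde10a*, phosphodiesterase 10A, read 0.07, 0.15, 0.11 and 0.08 in Fn14koMRL, where replicate 2 was highest. It read 0.06, 0.08, 0.13 and 0.52 in MRL/lpr and 0.07, 0.23, 0.06 and 0.16 in MRL/MpJ, again with the high values on the weak array and in the Cy5 channel of MRL/MpJ. Of its 3 probes, the one at chr17:9179394-9179453 was not well above background in any mouse.

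*Ppp1r1b*, which encodes DARPP-32, was well above background in all 12 mice. It read 4.15, 4.99, 9.71 and 3.65 in Fn14koMRL (mean 5.63 ± 2.78 SD, n = 4). In MRL/lpr it read 1.76, 1.05, 1.39 and 1.70, all below the lowest Fn14koMRL mouse. In MRL/MpJ it read 4.31, 1.43, 2.86 and 1.21, so the Cy3 mice were above the Cy5 mice and replicate 1 reached into the Fn14koMRL range. The probe lies at chr11:98218965-98219024.

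*Rgs9*, whose product speeds the return of D2-coupled G proteins to rest, read 0.53, 1.06, 1.81 and 0.42 in Fn14koMRL as the mean of 4 probes. A pair of them, overlapping by 54 bases at chr11:109086669-109086734, carried this order, with 0.94, 1.83, 3.21 and 0.71 for the first and 1.14, 2.39, 4.00 and 0.91 for the second. The other two stayed at 0.01 to 0.03 in all Fn14koMRL mice. The probe printed above read 2.30 and 3.42 on the weak array, compared with 0.01 to 0.10 in the other 10 mice, and it lifted the mean for MRL/lpr replicates 3 and 4 to 0.71 and 1.08. In MRL/lpr replicates 1 and 2 the mean was 0.24 and 0.31, and in MRL/MpJ it was 0.21, 0.54, 0.17 and 0.31.

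*Rasd2*, which encodes the small GTPase Rhes, read 3.18, 4.13, 6.42 and 3.00 in Fn14koMRL. In MRL/MpJ it read 4.36, 4.22, 4.11 and 5.72 and in MRL/lpr 1.19, 1.86, 1.01 and 0.81. The MRL/lpr mice lay below all 8 others, whereas Fn14koMRL and MRL/MpJ overlapped. Its probe lies at chr8:77747953-77748012. *Scn4b*, the beta-4 subunit of voltage-gated sodium channels, read 0.79, 1.41, 3.09 and 0.97 in Fn14koMRL, 1.43, 0.70, 1.36 and 0.53 in MRL/MpJ, and 0.27, 0.21, 0.49 and 0.61 in MRL/lpr. Replicate 3 was 2.93 times the mean of the other 3 Fn14koMRL mice, while in MRL/MpJ the Cy3 mice were again above the Cy5 mice. Its probe lies at chr9:44962045-44962104.

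**Figure D2:**
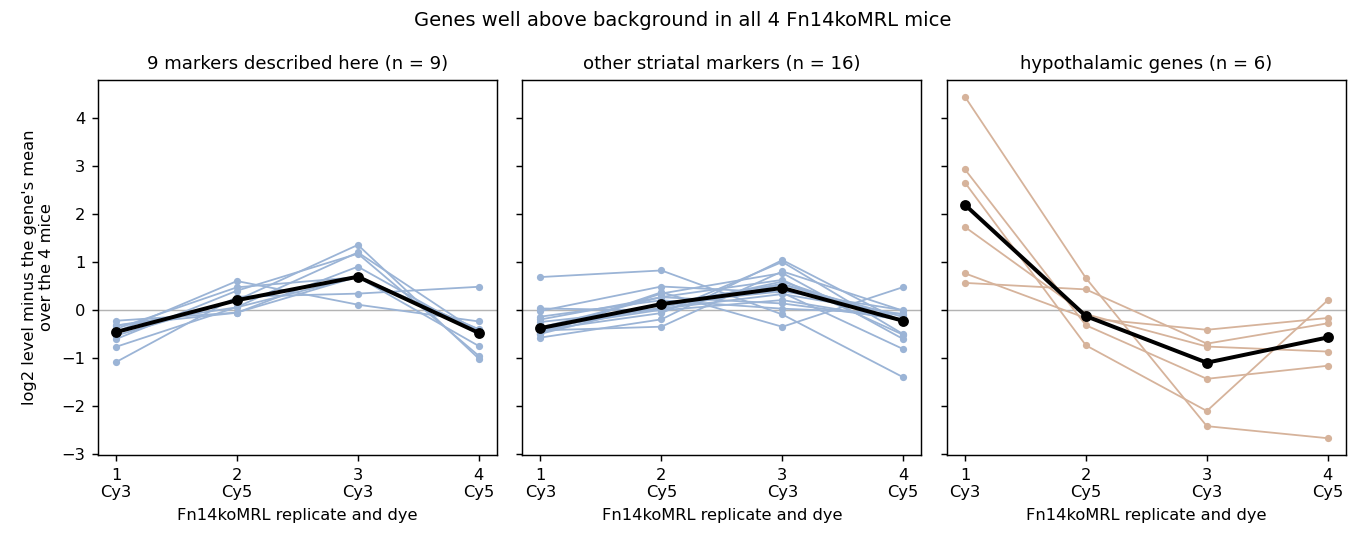
Log2 level of each gene minus its mean over the 4 Fn14koMRL mice, for genes well above background in all 4; thin lines join the values of a gene, the thick line is the median of the list, and mice have no order. The 9 markers and the 16 other striatal markers are highest in replicate 3 in the median, and the 6 hypothalamic genes in replicate 1.

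Other striatal markers were then set beside these. Of 20 further genes of striatal neurons, 11 had their highest Fn14koMRL value in replicate 3, 4 had it in replicate 2, 2 in replicate 1 and 2 in replicate 4, and 1 was at the floor in all 4 mice. In all, 16 were well above background in all 4 of these mice. *Syndig1l*, which encodes a synaptic membrane protein, read 0.52, 0.67, 1.58 and 0.64, with the same highest mouse as the 7 markers above.

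Genes of the direct pathway were also on the list. *Drd1*, the dopamine D1 receptor, read 0.10, 0.14, 0.13 and 0.06 in Fn14koMRL, and *Tac1*, the substance P precursor, read 1.30, 1.43, 0.76 and 0.31. In both, replicate 2 was highest and replicate 4 lowest. For *Drd1*, replicates 2 and 3 are not told apart, since their negative-control spots lay at 0.016 and 0.001 of the channel median. *Pdyn*, the dynorphin precursor, named after its values were seen, read 0.71, 0.98, 0.90 and 0.72, also highest in replicate 2. Outside this pathway, *Actn2*, an actin cross-linking protein, read 0.05, 0.06, 0.14 and 0.05, highest in replicate 3.

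Genes of other regions were read in the same 4 mice. Summed over 14 hypothalamic genes, the level was 19.5, 3.55, 1.53 and 2.01 in Fn14koMRL replicates 1 to 4, and 12 of the 14 were highest in replicate 1. *Oxt*, the oxytocin precursor, read 9.47, 0.69, 0.08 and 0.07, and *Pmch*, the precursor of melanin-concentrating hormone, 2.71, 0.04, 0.02 and 0.03. The 9 striatal markers summed to 14.3, 21.2, 33.1 and 12.6, the 20 others to 16.8, 22.6, 27.3 and 18.7, the 13 hippocampal markers to 5.99, 8.63, 7.10 and 8.91, and the 10 cortical markers to 6.55, 8.99, 9.14 and 9.23. Such sums mostly reflect their brightest genes, as with *Wfs1*, which alone read 4.10, 6.74, 4.51 and 6.93 of the hippocampal ones. The cortical sums of replicates 2 to 4 were close to each other, and 5 of the 10 cortical markers, like the striatal ones, were highest in replicate 3, with 3 in replicate 2 and 2 in replicate 4. Of the hippocampal markers, 8 of 13 were highest in replicate 4 and 2 in replicate 3. Only 8 of the 13 were well above background in all 4 of these mice. Some of those highest in replicate 4, *Prox1* among them at 0.024, read under the negative-control spots of that Cy5 channel (0.028). Of the 15369 genes well above background in all 4 mice, 29.6% were highest in replicate 4. Of 14 choroid plexus genes, 11 were highest in replicate 1, where *Ttr* (transthyretin) read 4.61 against 0.30 to 0.66 in the other 3 mice, while *Enpp2*, an enzyme that makes lysophosphatidic acid, ranged from 6.41 to 8.03.

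Genes of the thalamus and of dopamine and cholinergic neurons were looked at in the same way. Of 11 thalamic genes, 3 were highest in replicate 3, and *Slc17a6*, a vesicular glutamate transporter, read 0.90, 0.42, 0.12 and 0.37. Of 6 dopamine neuron genes none was highest in replicate 3, and *Th* (tyrosine hydroxylase) read 0.69, 0.32, 0.21 and 0.22, and *Slc18a2*, the vesicular monoamine transporter, 0.10 in replicate 1 and 0.01 to 0.02 in the rest. Of 5 cholinergic genes none was highest in replicate 3 either. *Slc18a3*, the vesicular acetylcholine transporter, read 0.15, 0.16, 0.09 and 0.05, and *Lhx8*, a factor of cholinergic neurons, 0.14, 0.08, 0.02 and 0.01. Low values with a wide ratio also occurred in *Tdo2* of the hippocampal list, at 0.01 to 0.04.

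**Figure D3:**
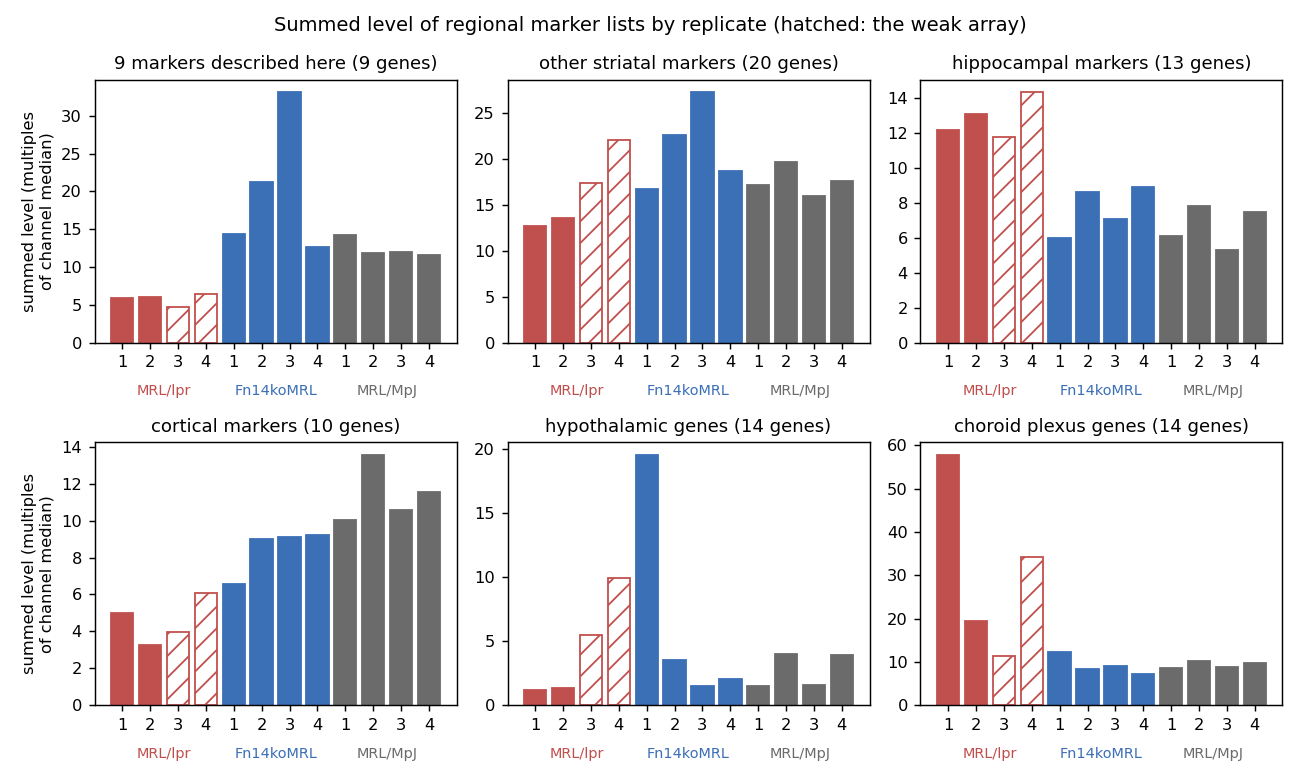
Sum of the levels (multiples of the channel median) over each list of marker genes in each mouse, in replicate order within each strain. Hatched bars are the mice of the weak array, and a sum mostly reflects its brightest genes. In Fn14koMRL the sum of the 9 markers is highest in replicate 3 (33.1), the hypothalamic sum in replicate 1 (19.5), and the sum of the 9 markers is lower in all MRL/lpr mice (4.65 to 6.39) than in any other mouse.

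In the comparison of MRL/lpr with MRL/MpJ, the differences used no level of the markers in Fn14koMRL mice, whereas the limma standard errors and p-values did, since all 12 mice shared one estimate of the spread. The log2 difference was negative for 6 of the 9 markers, meaning a lower level in MRL/lpr, and positive for 3, with a median log2 of -1.22, compared with 0.21 over all genes tested. Of the 9, 1 passed limma's test across all genes at an adjusted p of 0.05, *Rasd2*, against a background of 2.46% of 29608 genes in either direction. With only the 8 mice of these strains in the limma fit, 0 of the 9 passed, with 5 at an unadjusted p under 0.05, and 0.247% of all genes passed (73, with 3790 unadjusted). In the fit of all 12 mice, 228 genes were higher and 500 lower in MRL/lpr, a split that was 1747 to 819 with Agilent's processed signals, which moved the median of all genes from 0.21 to 0.92. For 3 markers (*Rasd2*, *Penk*, *Adcy5*) the highest MRL/lpr mouse was under the lowest MRL/MpJ mouse, as was the case for 5.82% of all genes.

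*Rasd2* was 3.92-fold lower in MRL/lpr (log2 difference -1.97 ± 0.32 SE; limma adjusted p = 0.00641). The exact permutation test (two-sided, 4 against 4) gave p = 0.0286, the smallest that this design allows, and it used these 8 mice alone. The limma adjusted p with only these mice was 0.0514. With the array as a random block, in which the 2 mice of an array are not counted as independent, the limma adjusted p was 0.0733. Without the weak array the log2 difference was -1.61 and the gene remained past the threshold in the fit with the other strains.

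The other markers did not pass. *Adcy5* differed by -1.22 ± 0.31 on the log2 scale (limma adjusted p = 0.0557), and *Penk* by -1.54 ± 0.50 (0.112). The exact permutation test gave p = 0.0286 for both. *Scn4b* differed by -1.35 ± 0.45 (limma adjusted p = 0.120; exact permutation p = 0.0571) and *Adora2a* by -1.47 ± 0.62 (limma adjusted p = 0.209; exact permutation p = 0.0857). *Ppp1r1b* differed by -0.57 ± 0.34, with overlapping mice (limma adjusted p = 0.425; exact permutation p = 0.314). With Agilent's processed signals in place of the background-subtracted ones, the *Ppp1r1b* difference was -2.43 (limma adjusted p = 0.00447). *Rgs9* had a difference of 0.84 ± 0.55, *Drd2* of 0.32 ± 1.02 and *Pde10a* of 0.26 ± 0.57, with limma p before adjustment of 0.148, 0.754 and 0.652. The *Rgs9* value includes the probe that read high only on the weak array.

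The weak array decided several of these values. Without MRL/lpr replicates 3 and 4, which leaves 2 MRL/lpr mice of 1 array, 4 markers passed, as did 10.3% of all genes: *Rasd2*, *Scn4b* (-1.96), *Adora2a* (-1.84; limma adjusted p = 0.00371) and *Adcy5* (-0.83; limma adjusted p = 0.0168). The MRL/MpJ side of *Adora2a* included Cy5 readings of 0.55 and 0.22, in channels with raised negative controls, the second not well above background. Without that array *Drd2* turned to -1.60 and *Pde10a* to -0.68, neither past the threshold, *Rgs9* went to 0.01 and *Penk* to -0.51. Of the 8 negative differences among 9 markers that resulted, the 2 mice lay below all MRL/MpJ mice for 5, as was the case for 14.2% of all genes. In that fit the median log2 difference was -0.83 over the markers and -0.68 over all genes. Leaving out single mice also moved calls. *Adcy5* and *Penk* passed without MRL/lpr replicate 1 (limma adjusted p = 0.0150 and 0.0237) or without replicate 2 (0.0228 and 0.0187). Of all 29608 genes, 3695 and 4082 passed in these fits, against 728 with all 12 mice. Most of the MRL/lpr mice left in them were on the weak array, where *Penk* was not well above background. *Scn4b* passed without MRL/lpr replicate 4 (limma adjusted p = 0.0420), as did 572 of all genes. *Adcy5* passed without Fn14koMRL replicate 3 (limma adjusted p = 0.0494), as did 501 of all genes. *Rasd2* passed whichever of the 12 mice was left out.

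**Figure D4:**
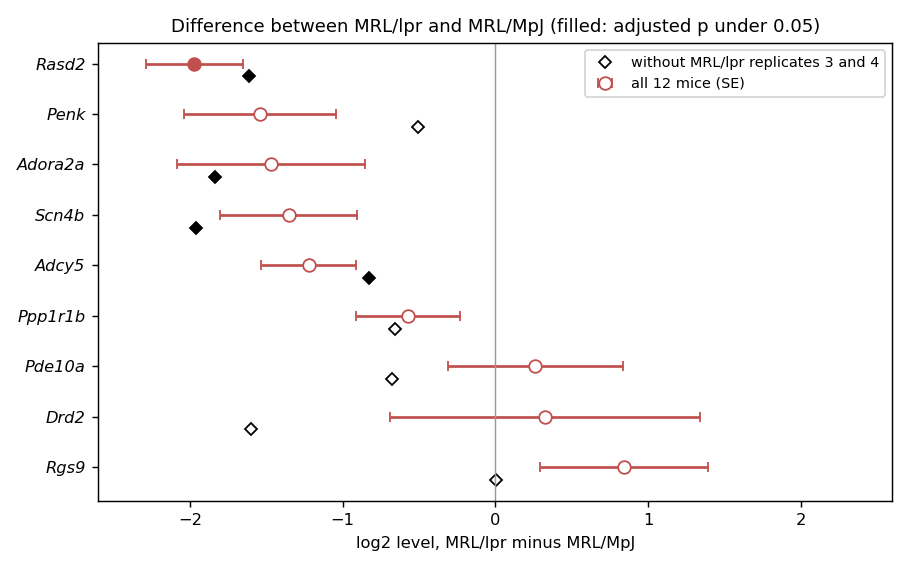
Log2 difference in level, MRL/lpr minus MRL/MpJ, for each marker with all 12 mice (circles, bars are the standard error of the limma fit) and with the 2 mice of the weak array left out (diamonds); filled symbols have a limma adjusted p under 0.05. *Rasd2* is filled in both, *Scn4b*, *Adora2a* and *Adcy5* only without the weak array, and *Drd2* and *Pde10a* change sign.

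The same comparison was read in the striatal genes outside the 9 and in the signalling genes around them. Of the 20 other striatal markers, 3 passed limma's test, all lower in MRL/lpr, and their median log2 difference was -0.08. Among them, *Arpp21*, a cAMP-regulated phosphoprotein also present in cortex, read 0.15 to 0.75 in MRL/lpr compared with 2.34 to 3.37 in MRL/MpJ (log2 difference -2.95), and *Foxp1*, a transcription factor of striatal and cortical neurons, 0.27 to 0.55 compared with 0.65 to 1.07 (-1.23). Of 29 other genes of dopamine, adenosine and cAMP signalling, 2 passed, both lower in MRL/lpr: *Adcy2*, another adenylyl cyclase, at 0.75 to 0.91 against 1.62 to 2.28, and *Prkar1b*, a regulatory subunit of protein kinase A, at 2.36 to 10.6 against 14.5 to 24.4. In these lists, 15.0% and 6.90% of the genes were called. Without the weak array, 3 of the 20 striatal markers passed as higher and 7 as lower, and 1 of the 29 signalling genes as higher and 8 as lower. The 4 named genes were among the lower ones there too, at -2.14 for *Arpp21*, -1.50 for *Foxp1*, -1.08 for *Adcy2* and -1.10 for *Prkar1b* on the log2 scale. In the same comparison 5 of the 10 cortical markers passed as lower and 7 of the 13 hippocampal markers as higher in MRL/lpr (7 and 7 without the weak array), and the part of these in the striatal values was not tested.

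The values of Fn14koMRL against the other strains are descriptions, since the genes were chosen within it. All 4 Fn14koMRL mice lay above all 4 MRL/lpr mice for 6 markers (*Penk*, *Adora2a*, *Scn4b*, *Ppp1r1b*, *Rasd2* and *Adcy5*), an order that 4.87% of all genes had. *Penk* was 6.74-fold higher (log2 difference 2.75 ± 0.50 SE), *Adora2a* 4.75-fold, *Scn4b* 3.75-fold, *Ppp1r1b* 3.60-fold, *Rasd2* 3.43-fold and *Adcy5* 2.87-fold, and *Rgs9* differed by 0.71 ± 0.55. The *Penk* and *Adora2a* probes were well above background in only 2 of the 4 MRL/lpr mice. Without the weak array the folds were 3.29 for *Penk*, 6.13 for *Adora2a*, 5.71 for *Scn4b*, 3.83 for *Ppp1r1b*, 2.68 for *Rasd2* and 2.18 for *Adcy5*, and the log2 difference of *Rgs9* was 1.55. With only the spots at least 2 times background in all 12 mice, *Rgs9* was left with the probe printed above alone. Its log2 difference was then -3.77. With the negative-control spots as background, the log2 difference of *Adora2a* was 3.82. *Drd2* and *Pde10a* differed by -0.86 ± 1.02 and -0.43 ± 0.57, which became 1.06 and 0.51 without the weak array. Against MRL/MpJ, *Penk* alone had all 4 Fn14koMRL mice above (2.31-fold), as did 2.27% of all genes. *Rgs9* was 2.94-fold and *Ppp1r1b* 2.42-fold higher in the mean, with overlapping mice, and both turned under another processing. With Agilent's processed signals, *Ppp1r1b* had a log2 difference of -0.05. *Rgs9* had one of -0.40 with only the spots at least 2 times background in every mouse. That value rests on the printed *Rgs9* probe alone, without the pair of probes that carried the order in Fn14koMRL. Without Fn14koMRL replicate 3 the differences from MRL/MpJ were 1.05 for *Rgs9*, 1.08 for *Ppp1r1b*, 0.98 for *Penk* and 0.16 for *Adora2a*. The comparisons of this strain share its 4 mice, and the first also shares the MRL/lpr mice with the test above.

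Over the 12 mice, the 10 genes outside the list whose levels most resembled the mean of the 9 markers included *Rrm1*, *Mkrn2*, *Syndig1l*, *Epha8*, *Kcnt1*, *Tle6*, *4933405E24Rik*, *Lrrk2* and *Arhgef10l*, with Pearson's r from 0.89 down to 0.84 among 13200 named genes. These 13200 were limited to genes well above background in every Fn14koMRL mouse, and the markers were chosen within that strain. The r was computed over samples that differ in strain, slide and signal strength, so it is a description. *Syndig1l* is itself a striatal marker, and *Rrm1*, a subunit of ribonucleotide reductase, was first with levels of 0.18 to 0.31 in all mice. *Kcnt1* encodes a sodium-activated potassium channel, *Epha8* an ephrin receptor and *Lrrk2* a kinase mutated in inherited Parkinson's disease. Without the weak array the r of these 10 genes lay between 0.85 and 0.89.

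Promoter windows of RefSeq (GRCm38.p6) were available for 6 of the 9 genes, 7 windows in all since *Pde10a* has 2. In the 250 bases before the start, the cAMP response element TGACGTCA was in none of them (1.55% of 32851 promoters), nor was its part TGACG (17.8%), both strands read. The GC box GGGCGG was in windows of *Adcy5*, *Drd2*, *Pde10a* and *Rgs9* (32.7% of promoters) and TATAAA in that of *Rgs9* (12.4%). The windows of *Rasd2*, the marker that passed the test, and of *Rgs9*, with a wide spread in Fn14koMRL, are shown with these letters in capitals. They lie at chr8:75213694-75213943 (plus strand) and chr11:109298182-109298431 (minus strand).
Rasd2: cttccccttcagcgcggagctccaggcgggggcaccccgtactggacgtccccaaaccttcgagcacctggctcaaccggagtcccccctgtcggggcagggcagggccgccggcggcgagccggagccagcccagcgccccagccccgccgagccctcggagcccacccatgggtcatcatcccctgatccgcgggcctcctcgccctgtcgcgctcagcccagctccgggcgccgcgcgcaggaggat
Rgs9: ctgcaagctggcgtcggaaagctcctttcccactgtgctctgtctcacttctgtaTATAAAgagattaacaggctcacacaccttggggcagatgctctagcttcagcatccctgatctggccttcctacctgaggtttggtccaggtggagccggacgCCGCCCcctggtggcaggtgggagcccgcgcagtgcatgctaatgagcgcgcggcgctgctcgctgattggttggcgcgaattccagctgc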

How the data were processed

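Hippocampal RNA of 12 mice was measured on 6 two-colour Agilent arrays. Image extraction by the authors used Agilent Feature Extraction 12.1. Each deposited file gives a linear intensity per spot in either dye (foreground, local background and processed signal) that is not normalized between channels. Other columns, per the file headers, hold yes-or-no flags (well above background, outlier, saturated), which count as other units, and probe positions in mm9; no probe spot was saturated.

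Here, following the methods, the local median background was subtracted and each channel divided by its median over the 10877 spots with a foreground at least 2 times background and no outlier flag in all 12 samples. The methods also removed corrupted spots and those whose foreground was under 2 times background. Departing from this, no spot was dropped here. A floor of 1% of the channel median was applied to net signals, so that the comparison holds 29608 genes. Replicate spots, and then the probes of each gene, were averaged before taking log2. The labels gave the strain and replicate of each sample. Tests of log2 levels used limma 3.58.1 (R 4.3.3; lmFit, contrasts, eBayes with trend), all 12 samples in 1 fit with dye as covariate and Benjamini-Hochberg adjustment over all genes, at an adjusted p of 0.05; the scripts were tested on simulated data. For the markers, two-sided exact permutation tests were added. The p-values treat mice as independent, although 2 share each array, and precision is limited by there being 6 arrays.

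The markers and lists were chosen with earlier results of these data known: 20 other striatal, 29 signalling, 13 hippocampal, 10 cortical, 14 hypothalamic, 11 thalamic, 14 choroid plexus, 6 dopamine neuron and 5 cholinergic genes. Named are the 9 markers, *Tnfrsf12a* and *Fas*, the other striatal and signalling genes called, the 5 other striatal genes with the widest ratio in Fn14koMRL, of each regional list the gene with the highest level and that with the widest ratio there, and the 10 genes most like the markers. A few of these genes are not reported here. Alternatives covered the filter, background, floor, probe summary, normalization, dye, array or replicate as block, the methods' t-test, the weak array, the strains in the fit, and each mouse left out. Python 3.11.15 was used for the other steps.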

Additional observations from a re-analysis of the deposited data

Results flagged for a closer look

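Among the MRL/lpr and MRL/MpJ mice, 1 of 18 marker and strain combinations had a mouse whose gap to the others took up more of the range (log2) than Dixon's critical value for 4 samples, which chance alone gives in about 1 of 20 groups. *Penk* in MRL/MpJ replicate 4 was 2.15, against 2.59, 2.54 and 2.58. The Fn14koMRL mice were left out of this check, since the genes were chosen on their spread.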

How the results depend on the processing

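The count of genes that differed between MRL/lpr and MRL/MpJ (728) was 2566 with Agilent's processed signals, 106 with the array as a random block, 3061 without the weak array and 73 with only the 8 MRL/lpr and MRL/MpJ mice, an alternative added after the values were seen, and it ranged from 200 to 4082 when 1 mouse was left out (4082 without MRL/lpr replicate 2, 200 without MRL/MpJ replicate 3). The methods' t-test on linear levels gave 2272 genes at an unadjusted p under 0.05 and 0 after Benjamini-Hochberg adjustment, where limma gave 5615 unadjusted. The count of markers that passed (1) was 4 with the processed signals and without the weak array, 2 with only the spots valid in all 12 mice, with only genes well above background in at least 4 mice and with no dye covariate, 0 with the array as a random block, with only those 8 mice and with the methods' t-test, and 1 to 3 when 1 mouse was left out. *Rasd2* had an adjusted p of 0.0733 with the random block, 0.0514 with only those 8 mice and 0.202 with the methods' t-test. The median difference over the markers between MRL/lpr and MRL/MpJ stayed between -1.42 and -0.83, and that between Fn14koMRL and MRL/lpr between 1.52 and 1.90. The median between Fn14koMRL and MRL/MpJ was 0.55; it was 0.08 with only the spots valid in all 12 mice, 0.15 with the processed signals, 0.16 without Fn14koMRL replicate 3, and 1.11, the highest value, with the negative-control spots as background, also added later. The median log2 spread of the markers within Fn14koMRL, 1.44, stayed between 1.06 (without replicate 3) and 1.49. *Drd2* turned from 0.32 to -0.0892 with normexp and quantile normalization, to -1.60 without the weak array, and was -0.40 to 1.19 with 1 mouse left out, negative without MRL/lpr replicate 3 or 4 or MRL/MpJ replicate 1 or 3; *Pde10a* turned from 0.26 to -0.0296 with the processed signals, -0.68 without the weak array and -0.28 without MRL/lpr replicate 4; *Rgs9* turned from 0.84 to -0.50 with its probe of the highest mean level, also added later. The *Rgs9* mean over 4 probes includes the probe that read 2.30 and 3.42 on the weak array. The cause of the *Drd2* and *Pde10a* turns was not tested. *Adora2a*, *Pde10a* and *Penk* had no spot valid in all 12 mice and no value under that filter.

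With the replicate number as a block in place of dye, 897 genes and 1 marker (*Rasd2*, adjusted p = 0.00691) passed, and the replicate block changed no marker's call. The labels give no pairing across strains. The deviations of same-numbered mice correlated with r from -0.66 to 0.75 over genes, above 0.1 in 7 of 12 pairs, and a mouse correlated best with its own number in 4 of 12.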
